A study of Mus musculus with 12 samples.

Results

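Expression was followed for the parathyroid hormone receptor gene Pth1r and for genes of the hedgehog pathway in stromal cells of mouse bone that carried, or did not carry, a human breast cancer. The members were 9 genes fixed by name, Pthlh, Pth1r, Ihh, Ptch1, Smo, Gli1, Gli2, Gli3 and Hhip, each taken through a probe set annotated to that single gene symbol. Of these, 8 were measured among 19937 genes on the arrays, each by 1 probe set, and Pthlh, which encodes the ligand PTHrP, was not analysed here. Female NOD SCID mice, an immunodeficient strain, had received 200000 cells of the human breast cancer line MDA-MB231 scp1833 into the heart, and tumors grew in their long bones for about 2 weeks; tumor-free mice of the same strain and sex were the controls. By cell sorting, endothelial cells were isolated as negative for GFP, TR119 and CD45 and positive for SCA1 and CD31, and osteoblasts as negative for GFP, TR119, CD45, SCA1 and CD31 and positive for CD51. The 4 groups were endothelial cells of tumor-bearing mice, endothelial cells of tumor-free mice, osteoblasts of tumor-bearing mice and osteoblasts of tumor-free mice, with 3 arrays in each, labelled as biological replicates. No label says whether mice were pooled for an array, and p-values therefore reflect only how these arrays varied. No age and no other treatment of the mice is stated.

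PTHrP and parathyroid hormone bind Pth1r, a G protein-coupled receptor of osteoblasts and of growth plate chondrocytes that raises cyclic AMP. Breast cancer cells in bone are known for releasing PTHrP, which makes osteoblasts produce osteoclast-activating RANKL. Indian hedgehog, encoded by Ihh, comes from maturing chondrocytes, and in the growth plate it maintains PTHrP while PTHrP delays the maturation of the cells that make it. Hedgehog ligands bind Ptch1, which otherwise holds the membrane protein Smo inactive; active Smo acts through the primary cilium on the transcription factors Gli1, Gli2 and Gli3. Ptch1, Gli1 and Hhip, a membrane protein that captures hedgehog ligands, are themselves induced by the pathway.

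All values are log2 expression, so a difference of 1 is a doubling, and levels are not compared between genes because probe sets differ in their response. A gene was tested if it lay above the array median, 5.21 to 5.41, on at least 3 of 12 arrays, and a call means an adjusted p under 0.05 by limma with Benjamini-Hochberg adjustment over all 12430 genes tested. The sort held by markers: all 8 endothelial marker genes were higher and all 7 osteoblast marker genes lower in endothelial cells than in osteoblasts, in tumor-bearing and in tumor-free mice. The mean of 11 chondrocyte genes ranged from 9.66 to 10.51 on osteoblast arrays of tumor-bearing mice and from 6.46 to 9.90 on those of tumor-free mice, so the osteoblast gate also held cartilage transcripts. Hematopoietic markers, whose surface protein CD45 the sort removed, had list means of 5.13 to 6.48 and 5.44 to 7.65 on the same arrays, against 5.00 to 5.47 and 4.85 to 5.45 for the endothelial arrays of the tumor-bearing and the tumor-free mice. Tumor-free osteoblasts stood apart from the other groups: their replicates correlated at 0.867 to 0.908, and those of the other groups at 0.946 to 0.969.

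Ptch1, the hedgehog receptor, rose in osteoblasts of tumor-bearing mice. Its log2 expression was 8.37, 9.09 and 9.05 on osteoblast arrays of tumor-bearing mice, against 6.35, 7.13 and 7.06 on those of tumor-free mice. Every array of the tumor-bearing group lay above every array of the tumor-free group, with a gap wider than the spread within either. The group means were 8.84 ± 0.40 and 6.85 ± 0.43 (SD, n = 3 each), a 3.97-fold difference with a 95% interval of 2.65-fold to 5.95-fold (log2 difference 1.99 ± 0.26 SE, limma adjusted p = 0.00542). Ptch1 was the 1 member called among 7 tested, where 4.01% of all genes were called as higher and 0.571% as lower in this comparison. It passed in 23 of 24 alternative fits, with log2 differences of 1.74 to 2.48. The exception was the fit with the 6 osteoblast arrays alone (adjusted p = 0.104 by limma), in which 0 of 12430 genes passed, against 1820 at an unadjusted p under 0.05.

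**Figure D1:**
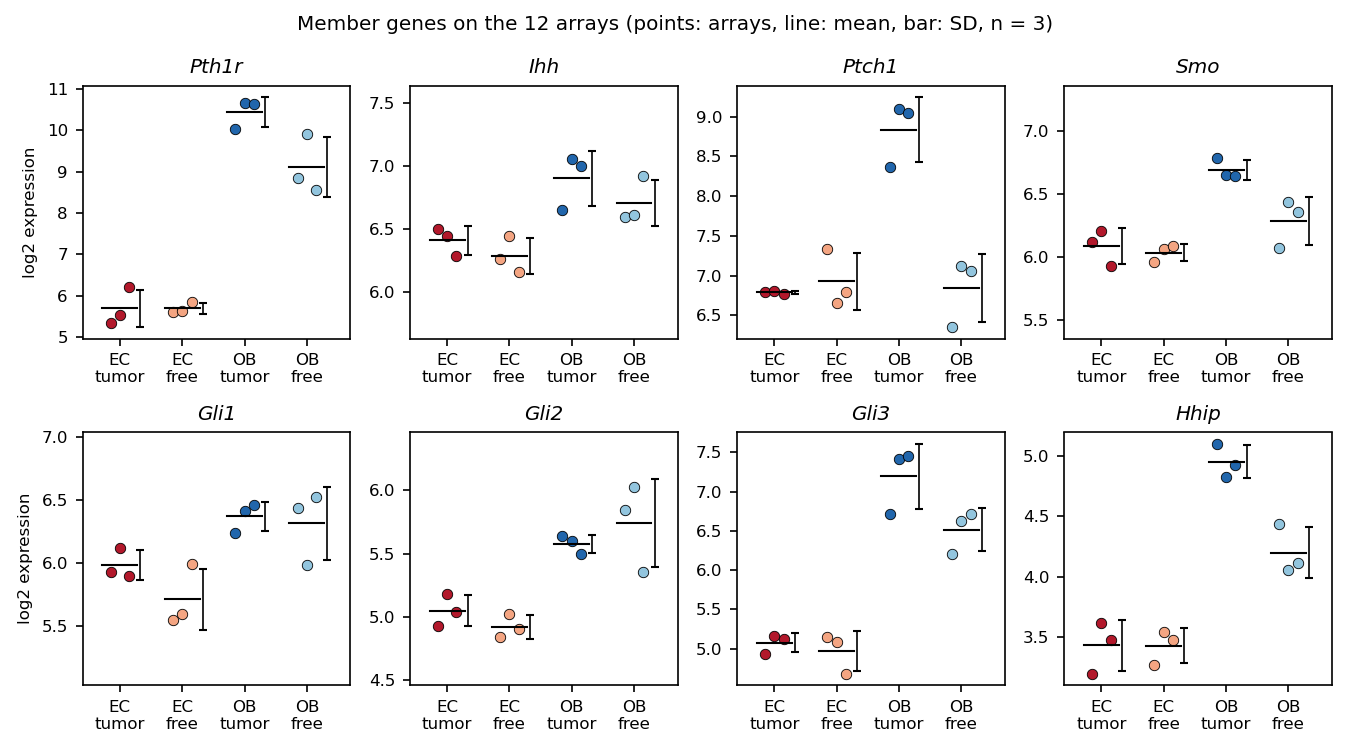
Log2 expression of the 8 measured members on each array, by group from left to right: endothelial cells (EC) of tumor-bearing and tumor-free mice, then osteoblasts (OB) of tumor-bearing and tumor-free mice; points are arrays in the order of their replicate number, horizontal lines group means and bars the SD (n = 3). Ptch1 stands at 8.37 to 9.09 in osteoblasts of tumor-bearing mice and at 6.35 to 7.34 on the other 9 arrays.

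The bases before an annotated start of Ptch1 are shown because this gene carried the one called change, and those of Hhip and Pth1r as 2 of the 3 other members whose osteoblast groups did not overlap. The window of Smo, the third, held no match to any motif searched and is not printed. The 3 windows, of 250 bases on the minus strand, are from RefSeq (GRCm38.p6), which held windows for 7 of the 8 members. They were searched on both strands for GACCACCCA, the motif bound by Gli proteins, for TGACGTCA, the cyclic AMP response element bound by CREB, and for GGGCGG, the GC box bound by Sp1. Matches are in capitals, and no 2 kinds of match overlap.
Ptch1, chr13:63565736-63565985: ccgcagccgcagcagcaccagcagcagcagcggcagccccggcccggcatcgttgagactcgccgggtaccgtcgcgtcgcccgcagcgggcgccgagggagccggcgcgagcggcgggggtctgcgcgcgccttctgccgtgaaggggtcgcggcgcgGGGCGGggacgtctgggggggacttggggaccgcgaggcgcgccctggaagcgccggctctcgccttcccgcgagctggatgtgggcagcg
Hhip, chr8:80058009-80058258: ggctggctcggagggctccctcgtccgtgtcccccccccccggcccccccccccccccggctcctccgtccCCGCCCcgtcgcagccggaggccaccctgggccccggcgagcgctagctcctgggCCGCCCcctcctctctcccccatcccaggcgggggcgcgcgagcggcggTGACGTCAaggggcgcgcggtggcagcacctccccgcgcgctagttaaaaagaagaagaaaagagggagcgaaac
Pth1r, chr9:110742611-110742860: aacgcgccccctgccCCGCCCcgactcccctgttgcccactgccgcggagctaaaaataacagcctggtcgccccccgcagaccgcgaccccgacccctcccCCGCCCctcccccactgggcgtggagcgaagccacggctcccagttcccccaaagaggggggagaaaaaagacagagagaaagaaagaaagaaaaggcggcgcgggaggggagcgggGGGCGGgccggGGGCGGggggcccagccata
The Gli motif occurred in none of the 3, nor in any other window of a member, and in 0.225% of all 32851 promoter windows of this length. Ptch1 held 1 GC box, Hhip held 2, and this window of Pth1r held 4, where 32.7% of all windows held at least 1. Hhip also held 1 cyclic AMP response element, beginning 75 bases before its start, a motif found in 1.55% of all windows. Pth1r has 3 annotated starts, whose windows held 4, 1 and 0 GC boxes. The window with 4 is printed. It lies inside the annotated span of the gene, from 110722085 to 110747145 on chromosome 9, and precedes an internal start. Of the 3, the one before the outer end of the gene held 0 GC boxes. The probe set value does not say which start was used. The window of Ptch1 lies inside the annotated span of the gene, from 63508328 to 63573460 on chromosome 13. It precedes an internal start, and the bases before the outer end of the gene were not searched. These are descriptions of the letters in short windows and carry no statement on binding.

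Pth1r, the receptor for PTHrP, stood at 10.02, 10.65 and 10.62 in osteoblasts of tumor-bearing mice, against 8.85, 9.92 and 8.56 in those of tumor-free mice. The groups did not overlap, but tumor-free replicate 2 came close to the lowest array of the tumor-bearing group. The means were 10.43 ± 0.36 and 9.11 ± 0.72 (SD, n = 3 each), 2.50-fold apart with a 95% interval of 1.48-fold to 4.21-fold, and the difference did not pass (log2 difference 1.32 ± 0.34 SE, limma adjusted p = 0.0547). Without tumor-free osteoblast replicate 2 it was 1.73 and passed (limma adjusted p = 0.00884). It passed in 4 of 24 alternative fits in all.

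Smo, which passes the hedgehog signal on once Ptch1 is bound, stood at 6.78, 6.65 and 6.64 in osteoblasts of tumor-bearing mice, against 6.07, 6.43 and 6.36 in those of tumor-free mice. The groups did not overlap, yet the step was small, 1.32-fold (log2 difference 0.40 ± 0.14 SE), and did not pass (limma adjusted p = 0.123). Groups without overlap, with the tumor-bearing one higher, were found for 12.3% of all genes tested, and Pth1r, Ptch1 and Smo were the 3 of 7 tested members among them. Hhip was the one member that failed the filter on dim genes, since it lay below the array median on all 12 arrays. It stood at 5.10, 4.83 and 4.93 in osteoblasts of tumor-bearing mice, against 4.44, 4.05 and 4.11 in those of tumor-free mice, again without overlap. Without the filter its difference was 1.68-fold (log2 difference 0.75 ± 0.15 SE, limma adjusted p = 0.0294), where 4.79% of 19937 genes were called and 8.11% had groups without overlap in this direction. The 7507 genes below the filter had a median log2 difference of -0.23 in the same comparison, opposite to that of Hhip.

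The Gli factors did not pass in osteoblasts. Gli3, which in the absence of ligand is cut to a repressor, stood at 6.72, 7.41 and 7.45 in osteoblasts of tumor-bearing mice, against 6.20, 6.63 and 6.72 in those of tumor-free mice. The lowest array of the tumor-bearing group met the highest tumor-free one (1.60-fold, log2 difference 0.68 ± 0.23 SE, limma adjusted p = 0.109). Without tumor-bearing osteoblast replicate 1 the difference was 0.92 (limma adjusted p = 0.0495), the 1 of 24 alternative fits in which Gli3 passed. Gli1, an activator that is itself a target of the pathway, averaged 6.37 ± 0.12 in osteoblasts of tumor-bearing mice and 6.32 ± 0.29 in those of tumor-free mice (SD, n = 3 each), and its groups overlapped throughout. Its 95% interval ran from 0.789-fold to 1.37-fold. Gli2, the main activator, averaged 5.58 ± 0.07 and 5.74 ± 0.35 in the same groups, with an interval of 0.684-fold to 1.17-fold. Ihh, the ligand, averaged 6.90 ± 0.22 in osteoblasts of tumor-bearing mice and 6.71 ± 0.18 in those of tumor-free mice, with overlapping arrays and an interval of 0.895-fold to 1.46-fold.

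**Figure D2:**
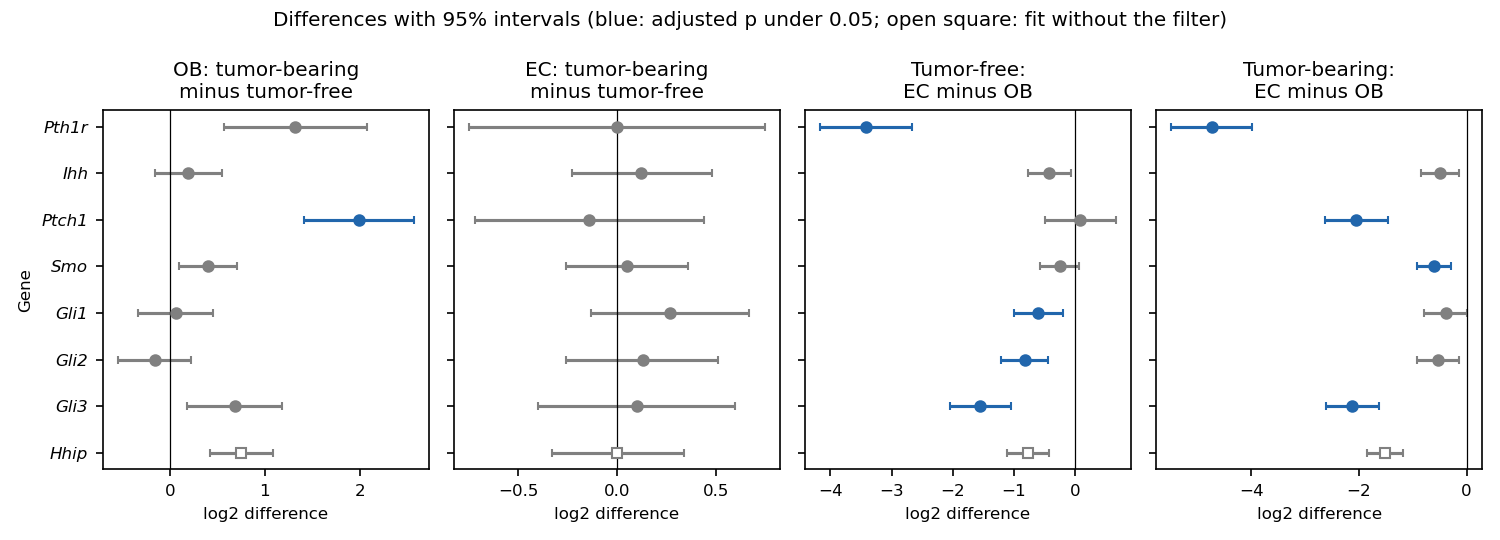
Log2 difference of each member with its 95% interval (limma, horizontal axes of different range) in 4 comparisons: tumor-bearing minus tumor-free osteoblasts (OB), tumor-bearing minus tumor-free endothelial cells (EC), and endothelial minus osteoblast in tumor-free and in tumor-bearing mice. Blue marks adjusted p under 0.05, and the open square is Hhip from the fit without the filter; Ptch1 is blue at 1.99 in the first panel and no member is blue in the second.

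Other cell type lists moved with these groups, and their part in the result was not tested; in sorted bulk RNA, fewer cells of a type and less RNA per cell cannot be told apart. The chondrocyte list had means of 9.66, 10.51 and 10.48 on osteoblast arrays of tumor-bearing mice, against 9.90, 8.55 and 6.46 on those of tumor-free mice. The median log2 difference of its 11 genes was 1.92, beside 1.99 for Ptch1. Of the 11 genes 1, Col2a1, was called (3.79-fold, limma adjusted p = 0.0194). Over tumor-bearing replicates 1 to 3 Ptch1 stood at 8.37, 9.09 and 9.05, lowest on replicate 1, as was the chondrocyte mean. Pth1r, Gli3, Ihh and Gli1 were also lowest on tumor-bearing replicate 1, while Smo, Hhip and Gli2 were highest on it. Over tumor-free replicates 1 to 3 Ptch1 stood at 6.35, 7.13 and 7.06, lowest where the chondrocyte mean was highest. Tumor-bearing replicate 1 and tumor-free replicate 1 had close chondrocyte means of 9.66 and 9.90, and Ptch1 stood at 8.37 and 6.35 on them. The same arrays were apart on other lists. Smooth muscle and pericyte genes averaged 8.42 and 6.81 on them, reticular stroma genes 10.60 and 8.46, and osteoblast markers 9.82 and 8.82. These are single arrays, without a test. Smooth muscle and pericyte genes had list means of 7.39 to 8.42 on osteoblast arrays of tumor-bearing mice, against 6.25 to 6.81 on those of tumor-free mice, and 3 of their 6 genes rose. Immediate early genes, which also respond to tissue dissociation, had means of 9.62 to 9.72 against 7.94 to 9.27, and 1 of 8 rose. On this list tumor-free osteoblast replicate 1 stood highest of its group, at 9.27 against 8.63 and 7.94. The endothelial array numbered 1 of tumor-free mice did too, at 9.62 against 8.59 and 8.56. Skeletal muscle genes had list means of 5.94 to 6.56 against 5.85 to 5.98, and 1 of 3 tested, Tnnt3, rose (2.28-fold, limma adjusted p = 0.0478). Reticular stroma genes had means of 9.08 to 10.60 against 8.46 to 9.70, with 0 of 4 called and a median difference of 0.64. Hematopoietic markers had 0 of 7 tested genes called and overlapping ranges, given above, and the mean of 7 osteoblast markers was 9.54 to 9.82 against 8.82 to 10.26.

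**Figure D3:**
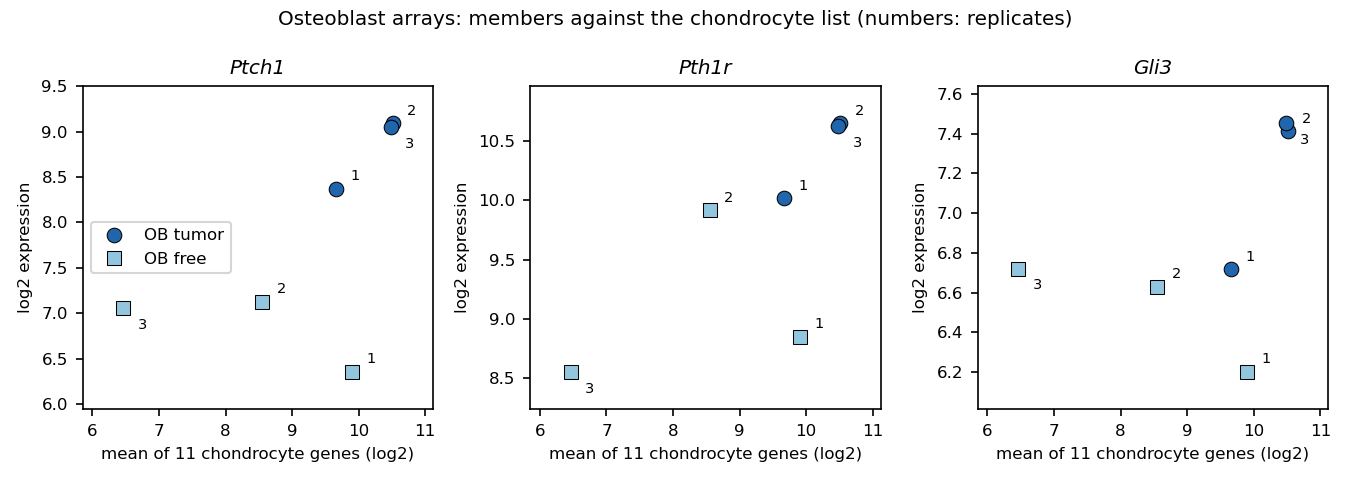
Log2 expression of Ptch1, Pth1r and Gli3 (vertical) against the mean of 11 chondrocyte genes (horizontal, log2) on the 6 osteoblast (OB) arrays, circles for tumor-bearing and squares for tumor-free mice, with replicate numbers. Tumor-free replicate 1, at a chondrocyte mean of 9.90, has the lowest Ptch1 value, 6.35, and tumor-bearing replicate 1, at 9.66, has 8.37. Both arrays, close on this list, are apart on other cell type lists. Tumor-bearing replicates 2 and 3, at 10.51 and 10.48, have 9.09 and 9.05.

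In endothelial cells no member was called between tumor-bearing and tumor-free mice (0 of 7 by limma, and 0 of 7 at an unadjusted p under 0.05), where 0.0241% of all genes were called and 6.93% had an unadjusted p under 0.05. Ptch1 stood at 6.80, 6.80 and 6.77 on endothelial arrays of tumor-bearing mice, against 7.34, 6.66 and 6.80 in those of tumor-free mice. The tumor-bearing arrays were nearly level and lay inside the tumor-free range, and the 95% interval of the difference ran from 0.606-fold to 1.36-fold. Pth1r stood at 5.34, 5.55 and 6.20 on endothelial arrays of tumor-bearing mice, against 5.61, 5.63 and 5.85 in those of tumor-free mice, with an interval of 0.593-fold to 1.69-fold. Hhip averaged 3.43 ± 0.21 and 3.43 ± 0.14 in the same groups. The largest log2 difference among the 7 tested members was 0.27 ± 0.18 SE for Gli1 (limma adjusted p = 0.906). The groups of all 8 members overlapped, where 7.84% of all genes tested were higher and 10.9% lower in tumor-bearing mice without overlap.

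Whether the tumor difference itself differed between the cell types was tested as the endothelial difference minus the osteoblast difference. For Ptch1 it was -2.13 ± 0.37 SE and fell just short of the threshold (limma adjusted p = 0.0527), where 0.209% of all genes were called. Without tumor-free osteoblast replicate 1 it passed at -1.88 (limma adjusted p = 0.0147), and over the alternatives adjusted p ranged from 0.0131 to 0.136, passing in 8 of 23. For Pth1r it was -1.32 ± 0.48 SE (limma adjusted p = 0.235). Of the 7 tested members 0 were called, and these 2 had an unadjusted p under 0.05, as did 16.0% of all genes.

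Between the cell types, Pth1r was far lower in endothelial cells than in osteoblasts. In tumor-free mice it averaged 5.70 ± 0.13 in endothelial cells and 9.11 ± 0.72 in osteoblasts (SD, n = 3 each), 10.6-fold lower (log2 difference -3.41 ± 0.34 SE, limma adjusted p = 5.63e-05). In tumor-bearing mice it averaged 5.70 ± 0.45 in endothelial cells and 10.43 ± 0.36 in osteoblasts, 26.6-fold lower (log2 difference -4.73 ± 0.34 SE, limma adjusted p = 5.17e-06). Its endothelial arrays, from 5.34 to 6.20, lay above but near the array medians of 5.21 to 5.41, so both folds rest on a low endothelial level. Gli3 was 2.92-fold lower in endothelial cells of tumor-free mice (4.97 ± 0.25, against 6.52 ± 0.28 in osteoblasts, limma adjusted p = 0.000809). It was 4.35-fold lower in those of tumor-bearing mice (5.08 ± 0.12, against 7.20 ± 0.41 in osteoblasts, limma adjusted p = 9.71e-05). Both genes gave groups without overlap in both settings. Gli3 lay below the array median on all 6 endothelial arrays and was tested because it was high in osteoblasts. The filter thus favoured a difference in this direction, and the endothelial level of Gli3 is that of a dim probe set.

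Gli2 and Gli1 were called as lower in endothelial cells of tumor-free mice, by 1.77-fold and 1.52-fold (limma adjusted p = 0.00656 and 0.0295). Gli2 stood at 4.84, 5.02 and 4.90 in those endothelial cells, against 5.85, 6.03 and 5.35 in osteoblasts. Gli1 stood at 5.55, 5.60 and 6.00 in endothelial cells, against 6.43, 5.99 and 6.52 in osteoblasts, where the highest endothelial and lowest osteoblast arrays met. The call of Gli1 ended in 10 of 24 alternative fits, among them median centring of the arrays (-0.45, limma adjusted p = 0.0637) and leaving out tumor-free replicate 1 of both cell types (-0.46, limma adjusted p = 0.16). Beside both stands a shift of dim genes: the 7507 genes below the filter had a median difference of -0.32 in this comparison, against 0.03 for the genes tested. Gli2, like Gli3, lay below the array median on all 6 endothelial arrays and passed the filter through osteoblast arrays alone. In tumor-bearing mice, where the dim genes had a median of -0.03, the differences of Gli2 and Gli1 were -0.53 and -0.39 and did not pass (limma adjusted p = 0.0686 and 0.208).

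Ptch1 showed no settled difference between the cell types in tumor-free mice, with means of 6.93 ± 0.36 for endothelial cells and 6.85 ± 0.43 for osteoblasts (log2 difference 0.08, limma adjusted p = 0.826, and -0.18 after quantile normalization). In tumor-bearing mice it was 4.13-fold lower in endothelial cells (6.79 ± 0.02, against 8.84 ± 0.40 in osteoblasts, limma adjusted p = 0.000342). The osteoblast arrays of tumor-bearing mice enter both this comparison and the one with tumor-free osteoblasts. Smo was 1.52-fold lower in endothelial cells of tumor-bearing mice (6.08 ± 0.14, against 6.69 ± 0.08 in osteoblasts, limma adjusted p = 0.0138), a call that ended without tumor-bearing endothelial replicate 3 (-0.53, limma adjusted p = 0.0608). Ihh was 1.34-fold and 1.41-fold lower in endothelial cells of tumor-free and tumor-bearing mice and did not pass in either (limma adjusted p = 0.0684 and 0.0666). Hhip, from the fit without the filter, was 1.71-fold lower in tumor-free and 2.86-fold lower in tumor-bearing mice (limma adjusted p = 0.00599 and 0.000104), where 32.9% and 9.24% of 19937 genes were called and 37.2% and 13.6% were lower without overlap. In all, 4 of 7 tested members were lower in endothelial cells of tumor-free mice and 4 of 7 in those of tumor-bearing mice, where 12.7% and 6.79% of all genes were. The first count includes Gli2 and Gli3 and the second Gli3, which the filter admitted through the osteoblasts in which they were high, so both counts are descriptions and are not read against these shares. In tumor-free mice the called genes split into 2266 higher and 1584 lower in endothelial cells, but into 2852 and 785 after median centring, which moved the median of all genes to 0.18. Groups without overlap, with endothelial cells lower, were found for 4 of the 7 in tumor-free mice (24.2% of all genes) and for all 7 in tumor-bearing mice (16.3% of all genes). Gli2 and Gli3 are in both of these counts too, and the same limit holds.

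By order of level, osteoblasts of tumor-bearing mice were highest for 7 of the 8 members, the exception being Gli2, which was highest in tumor-free osteoblasts with overlapping arrays. For Pth1r, Hhip, Gli3, Ihh, Smo and Gli1 the order was osteoblasts of tumor-bearing mice, osteoblasts of tumor-free mice and then both endothelial groups, whose arrays overlapped. The osteoblast groups also overlapped for Gli3, Ihh and Gli1, and those of tumor-free mice overlapped with endothelial arrays for Smo and Gli1. For Ptch1 the 3 groups below the osteoblasts of tumor-bearing mice overlapped.

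Of the other pathway genes, 61 of the 67 measured were tested, in lists chosen with earlier results known. In osteoblasts of tumor-bearing mice 5 rose and 0 fell, or 8.20% against 4.59% of all genes called in either direction. These 5 include Ift80, a gene of the primary cilium that the filter admitted through the group in which it is high. The count is therefore a description and is not read against that share. On the hedgehog side, 0 of 7 ligand and release genes, 0 of 2 co-receptors, 0 of 10 transduction genes and 0 of 7 targets outside the members were called, with list medians of -0.10, -0.19, 0.13 and -0.21 against -0.001 for all genes. Of the 7 targets, 2 had log2 differences above 0, Foxf1 at 1.07 and Foxc2 at 0.22 (limma adjusted p = 0.42 and 0.729). The other 5 lay below 0, from -0.08 for Bcl2 to -0.61 for Mycn and Ccnd2 (limma adjusted p = 0.862, 0.11 and 0.161). Of the 2 co-receptors, Boc averaged 5.80 ± 0.15 in osteoblasts of tumor-bearing mice and 5.78 ± 0.48 in those of tumor-free mice, and Gas1 6.76 ± 0.21 and 7.17 ± 0.14 (limma adjusted p = 0.969 and 0.141).

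Of 6 genes of the primary cilium, 1 rose. Ift80, a component of the transport machinery inside the cilium, stood at 6.77, 6.81 and 6.70 in osteoblasts of tumor-bearing mice, against 5.72, 4.67 and 4.74 in those of tumor-free mice. Its tumor-bearing arrays were level and clear of all others, and endothelial arrays ran from 4.50 to 4.72 with tumor and from 4.71 to 4.99 without. The osteoblast difference was 3.29-fold (log2 difference 1.72 ± 0.24 SE, limma adjusted p = 0.00604), and 2.05 without tumor-free osteoblast replicate 1. Against tumor-free replicate 1 alone it was 1.04. Ift80 lay above the array median only on the 3 arrays of tumor-bearing osteoblasts and on tumor-free osteoblast replicate 1, so it was tested because of the group in which it is high, and its lower values are those of a dim probe set.

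On the PTH side, 2 of 17 signaling genes and 2 of 11 target genes rose in osteoblasts of tumor-bearing mice. Crtc2, a coactivator of CREB that responds to cyclic AMP, stood at 8.87, 8.66 and 8.33 in osteoblasts of tumor-bearing mice, against 7.17, 7.76 and 7.03 in those of tumor-free mice (2.46-fold, limma adjusted p = 0.0102). Creb1, the transcription factor itself, averaged 8.41 ± 0.04 and 7.68 ± 0.19 in these groups (1.66-fold, limma adjusted p = 0.0316), a call that held in 13 of 24 alternative fits. Nr4a1, a nuclear receptor induced quickly by PTH, rose 3.09-fold, and Ptgs2, the inducible prostaglandin synthase, 6.71-fold (limma adjusted p = 0.00942 and 0.0102). The median over the 11 targets was 0.94, and their list shares Fos with the immediate early list, whose median was 1.07. The other 9 targets did not pass. Il6, the cytokine interleukin 6, averaged 8.23 ± 0.62 in osteoblasts of tumor-bearing mice and 5.07 ± 1.91 in those of tumor-free mice (log2 difference 3.16, limma adjusted p = 0.0747). Nr4a2, Nr4a3 and Fos had log2 differences of 1.57, 1.27 and 0.94 (limma adjusted p = 0.0784, 0.0708 and 0.0808), and for these 4 genes the groups did not overlap. Tnfsf11, which encodes RANKL, averaged 7.91 ± 0.45 in osteoblasts of tumor-bearing mice and 7.66 ± 0.33 in those of tumor-free mice (limma adjusted p = 0.535). Log2 differences were 0.46 for Rgs2, 0.13 for Crem, -0.16 for the collagenase gene Mmp13 and -0.37 for Sost, the osteocyte inhibitor of Wnt signaling, all with overlapping groups. In endothelial cells 0 of the 61 were called by limma between tumor-bearing and tumor-free mice, and 5 had an unadjusted p under 0.05, as did 6.93% of all genes. The median over the 11 PTH targets there was 0.54 and that of the immediate early list 0.61, against -0.02 for all genes. Il6, Nr4a3 and Crem had log2 differences of 2.61, 1.45 and 0.70, with groups apart, and Rgs2 and Ptgs2 of -0.24 and -0.12. What moved these targets in either cell type was not tested.

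**Figure D4:**
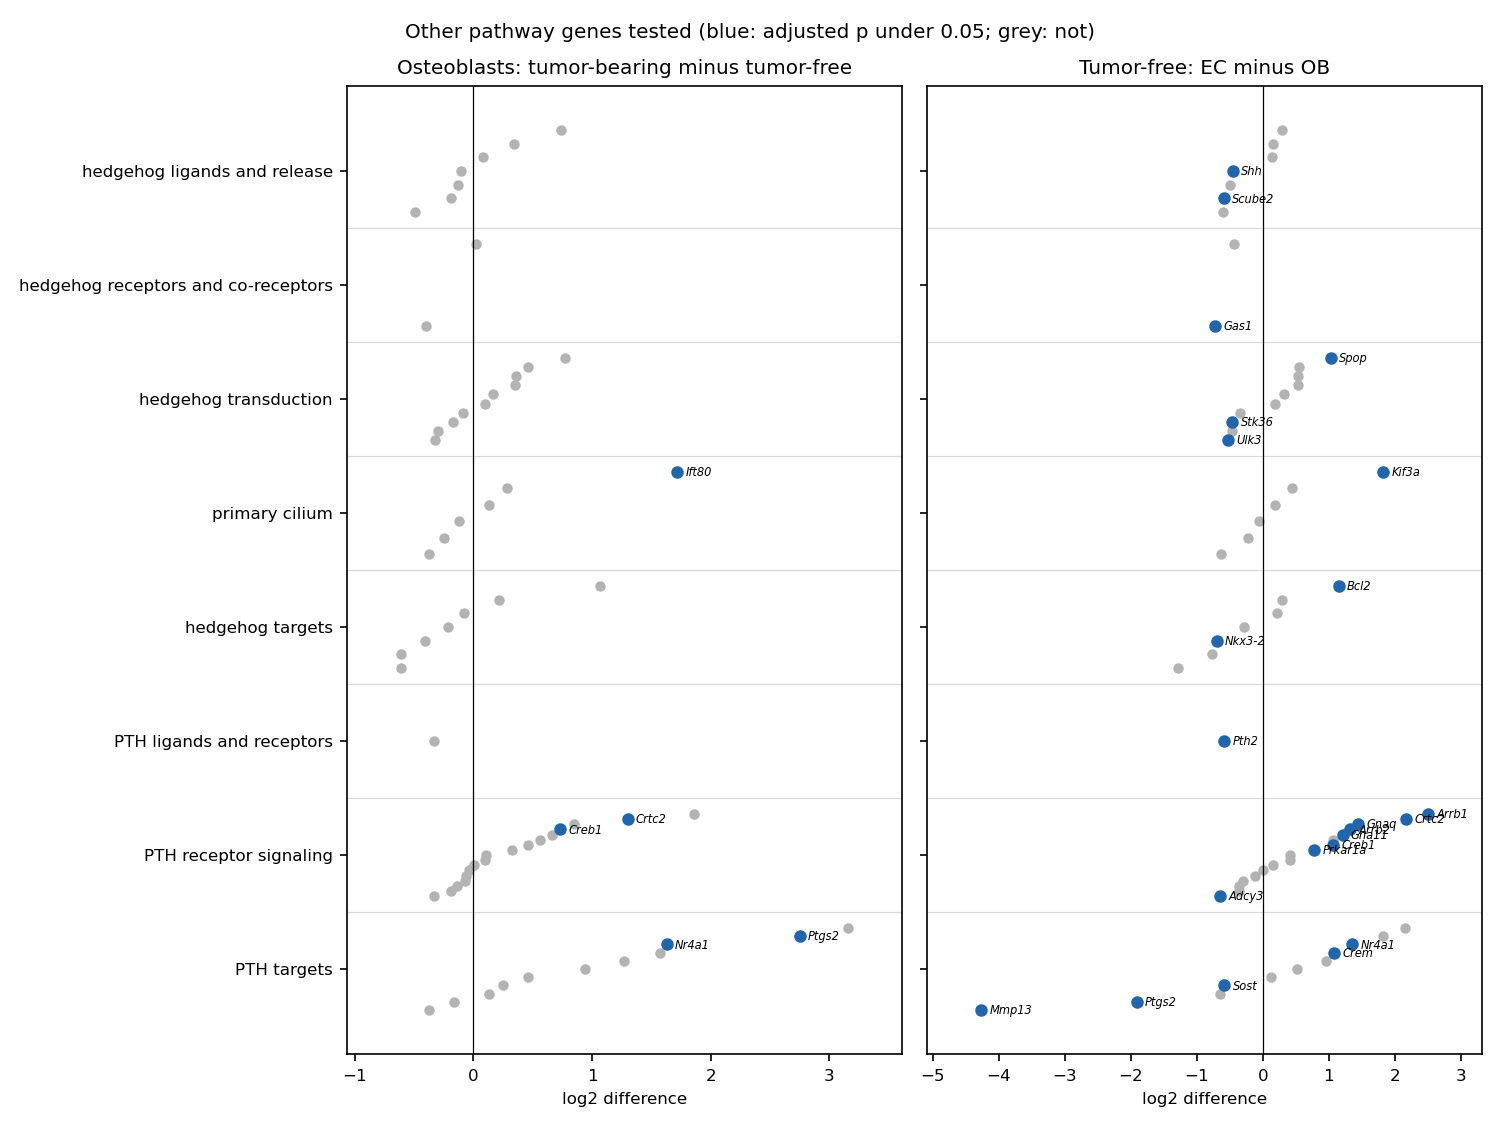
Log2 differences of the 61 other pathway genes tested, 1 point per gene, by list (vertical position within a list only separates points): tumor-bearing minus tumor-free osteoblasts at left and endothelial cells (EC) minus osteoblasts (OB) of tumor-free mice at right. Blue, named genes had adjusted p under 0.05 by limma, 5 at left, all higher, and 23 at right, 12 higher and 11 lower.

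Between the cell types of tumor-free mice, 12 of the 61 were higher and 11 lower in endothelial cells, or 37.7% against 31.0% of all genes. Arrb1, which desensitizes G protein-coupled receptors, was 5.71-fold higher in endothelial cells, with arrays of 8.07, 8.60 and 8.37 against 5.53, 5.64 and 6.32 in osteoblasts (limma adjusted p = 1.86e-05). Crtc2 was 4.49-fold higher there (limma adjusted p = 4.42e-05), and Gna11, a G protein subunit, 2.32-fold (limma adjusted p = 0.00122). Kif3a, a motor of ciliary transport, was 3.55-fold higher in endothelial cells (limma adjusted p = 0.0021). Mmp13 was 19.3-fold lower (limma adjusted p = 0.00121), with osteoblast arrays spread from 8.97 to 11.64. The co-receptor Gas1, which helps Ptch1 bind ligand, was 1.65-fold lower (6.38, 6.50 and 6.47, against 7.05, 7.14 and 7.32 in osteoblasts, limma adjusted p = 0.0064). Shh, Scube2, Pth2, Stk36, Ulk3 and Nkx3-2 were lower by 0.45 to 0.70 on the log2 scale, beside the shift of -0.32 in dim genes. Of these calls, that of Ulk3 held in 9 of 23 alternative fits, those of Shh and Stk36 in 12 of 23 each, and those of Pth2, Scube2 and Nkx3-2 in 16, 17 and 21 of 23. On these endothelial arrays Shh (4.95, 5.10 and 5.26), Stk36 (5.21, 5.30 and 5.18) and Nkx3-2 (5.30, 5.24 and 5.11) lay within or below the array medians of 5.21 to 5.41. Pth2, Scube2 and Ulk3 had arrays above that range. Dim genes can enter the test through osteoblasts, so the count of 11 lower is a description and is not read against the share of all genes.

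Between the cell types of tumor-bearing mice, 7 of the 61 were higher and 6 lower in endothelial cells, or 21.3% against 14.9% of all genes. Ptgs2 was 27.4-fold lower in endothelial cells (5.34 ± 0.54, against 10.11 ± 0.70 in osteoblasts, limma adjusted p = 3.3e-05). Ift80 was 4.47-fold lower (limma adjusted p = 0.000125) and Tnfsf11, the RANKL gene, 1.77-fold lower (limma adjusted p = 0.0399), although the call of Tnfsf11 held in only 11 of 24 alternative fits and in 5 of 12 with 1 array left out. Ift80 again entered the test through the osteoblasts in which it is high. The count of 6 lower genes includes it and is not read against the share of all genes. Scube1, of a family that helps release hedgehog ligands, was 2.78-fold lower (limma adjusted p = 0.032), a call that held in 18 of 24 alternative fits and in 7 of 12 with 1 array left out. Arrb1 was 3.61-fold higher and Crem, a cyclic AMP-responsive transcription factor, 3.16-fold higher in endothelial cells (limma adjusted p = 0.000176 and 0.000251).

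Among the 12430 genes tested, those whose centred values lay nearest to a member's over the 12 arrays were found for the 4 members whose group means spanned at least 1. For Ptch1 they were Chadl, Adamts3 and Adgra3, with root mean square differences of 0.316, 0.327 and 0.338. Chadl, for example, averaged 7.15 in osteoblasts of tumor-bearing mice and 5.49 in those of tumor-free mice, and 5.07 and 5.37 on the matching endothelial arrays. For Pth1r they were Col12a1, Fibin and Col11a1 (0.479 to 0.558), for Gli3 Cercam, Klhl13 and Cgref1 (0.223 to 0.243), and for Hhip Fndc3b, Samd4 and the proteoglycan gene Bgn (0.178 to 0.208). Col11a1 is also on the chondrocyte list used above. These are descriptions over 12 arrays that share their groups.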

How the data were processed

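Per the labels' protocols, the sorted cells' RNA was isolated by Pico Pure, and its cDNA was SPIA-amplified and biotin-labelled. Log2 expression is the unit of the deposited table, with 34760 probe sets on 12 arrays (1.55 to 12.94), which the authors made with affy per the submitters' processing notes; no source used here gives the background correction, normalization or genome build. Depth does not apply to arrays, and 3 arrays a group limit the precision. No 2 arrays were identical (0 of 66 pairs).

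Genes were named through the platform annotation (21640 probe sets with 1 symbol, 1321 with several, 11799 not listed), keeping per gene the probe set with the highest mean. By Entrez number 21553 with 1 symbol were found in RefSeq's gene table, which changed 0 symbols. Of 19937 genes, 12430 (62.3%) passed the filter. Tests used limma 3.58.1 in R 4.3.3, with 1 mean per group over all 12 arrays, eBayes (8 residual and 2.89 prior degrees of freedom), two-sided, adjusted by Benjamini-Hochberg at 0.05; 95% intervals use the same errors and hold for 1 gene at a time. The errors share 1 spread over the groups, although tumor-free osteoblasts varied more (median SD per gene 0.245, against 0.139 to 0.188 in the other groups). The steps were tested on simulated arrays that gave a gene 1 spread in all groups, so that test does not cover the unequal spread.

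Members, lists and tests were chosen with earlier results of these data known. Named genes are all members, up to 4 called genes per pathway list and comparison with the smallest p, and the 3 genes nearest to a member. Uncalled hedgehog targets, co-receptors and PTH targets in osteoblasts, and PTH targets in endothelial cells, were added after their values were seen. Of 73 listed pathway genes 67 were measured. Over all genes, arrays with the same replicate number did not deviate together (correlations of deviations -0.237 to 0.096), so they were not taken as pairs. On the immediate early list, tumor-free replicate 1 was the highest of its group in both cell types.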

Additional observations from a re-analysis of the deposited data

How the results depend on the processing

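Counts of called members depended on the settings as follows. In osteoblasts, tumor-bearing against tumor-free, 1 member passed, against 2 after median centring, with no filter, with a filter at the 70th percentile or against tumor-free replicate 1 alone, 0 with the osteoblast arrays alone, and 1 to 2 with 1 array left out. In endothelial cells 0 passed in every setting. Between the cell types of tumor-free mice 4 passed, against 2 at a minimum of 2-fold or with tumor-free replicate 1 alone, and 3 to 4 with 1 array left out. In tumor-bearing mice 4 passed, against 7 with array quality weights and 3 to 5 with 1 array left out. For the difference of tumor effects 0 passed, against 1 (Ptch1) after median centring, with the mean over probe sets, with array quality weights, or with tumor-free replicate 1 either left out or kept alone, and 0 to 1 with 1 array left out. With the replicate number as a block the counts stayed at 1, 0, 4, 4 and 0; the numbers do not pair the samples. The cause of these changes was not tested.

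Of 1686 recomputed differences 23 changed sign, and none of these was called. In osteoblasts Gli1 was -0.04 after quantile normalization and -0.06 against tumor-free replicate 1 alone (-0.11 to 0.16 with 1 array left out). In endothelial cells, tumor-bearing against tumor-free, Pth1r was -0.03 after quantile normalization, -0.04 after median centring or without tumor-free replicate 1, and -0.21 with array weights (-0.25 to 0.18 with 1 array left out). There Gli3 was -0.07 against tumor-free replicate 1 alone (-0.04 to 0.19), Ptch1 was 0.06 without tumor-free replicate 1 (-0.27 to 0.06) and Smo ran from -0.01 to 0.13 with 1 array left out. Between the cell types of tumor-free mice Ptch1 was -0.18 after quantile normalization, -0.09 with array weights and -0.37 without both tumor-free arrays numbered 1 (-0.16 to 0.22). The difference of tumor effects for Ihh was 0.07 after quantile normalization (-0.20 to 0.00).

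Over all genes the calls ranged from 0 (osteoblast arrays alone) to 1573 (without tumor-free osteoblast replicate 1) around 570 in osteoblasts, from 0 to 449 around 3 in endothelial cells, from 1911 to 6564 around 3850 and from 1325 to 3733 around 1854 between the cell types, and from 0 to 545 around 26 for the difference. In osteoblasts the called genes were 499 higher and 71 lower, against 368 and 184 after quantile normalization.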
